A study of Mus musculus with 12 samples.

Results

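The genes described here encode laminins, a matrix proteoglycan that binds them, and matrix receptors of the cell surface. These are the laminin chains Lama2, Lama4 and Lamc1, the proteoglycan Agrn, the receptor Dag1 and the integrin subunits Itga1, Itga6, Itga7, Itga9 and Itgb1. They were followed in a map of 5-hydroxymethylcytosine (5-hmC), an oxidised form of methylated cytosine, in mouse dorsal root ganglia, which hold the cell bodies of sensory neurons together with satellite glia and Schwann cells. Lumbar ganglia L4 to L6 were taken 24 h after injury, either to the sciatic nerve (peripheral lesion, PL) or to the dorsal column of the spinal cord (dorsal column lesion, DCL), and ganglia of the uninjured side of the PL animals served as control. Each group had 3 5-hmC libraries, each made from the pooled ganglia of 3 animals, and 1 un-enriched input per group was not used here. Control and PL ganglia thus both came from animals with a sciatic lesion, and a control from animals with no lesion was not used here. The labels name neither strain nor sex nor age.

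The differences come from 3 tables, 1 for each pair of groups, of short regions in which the authors called a difference in 5-hmC. A region was taken when its gene name was one of the 10 listed genes. This gave 96 of 70430 regions over the 3 tables: 19 of 12244 between PL and control, 50 of 35242 between DCL and control and 27 of 22944 between PL and DCL. Every region in the tables was selected by the authors for differing between the 2 groups, so the values below describe these regions and no test of the same values was run. With 3 libraries against 3, an exact permutation test could not go below p = 0.1 in any case. A region whose 5-hmC changed little is not listed, so a gene without a region is not shown to be unchanged. Values are normalised read counts, the reads of a region multiplied by a factor of its library, and the 3 libraries of a group are given in the order in which the tables list them. In ganglia of mixed cell types, a change in the share of a cell type and a change of 5-hmC within its cells cannot be told apart.

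Laminins are heterotrimers of an alpha, a beta and a gamma chain that form the backbone of basement membranes. In peripheral nerve, Schwann cells lay down such a membrane around themselves and the axons they enclose, and growing sensory axons use it as a substrate. Cells hold on to it through integrins, which are pairs of an alpha and a beta subunit linked to the actin skeleton inside the cell, and through dystroglycan, which ties laminin and agrin to dystrophin or utrophin. 5-hmC is made by TET enzymes from 5-methylcytosine, mostly where a cytosine is followed by a guanine (CpG), and is abundant in the bodies of genes in neurons.

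Most of the regions were placed in gene bodies by the tables: all 19 between PL and control, 48 of 50 between DCL and control and 24 of 27 between the lesions. Of these, 2 regions, both in Itga9, began past the listed end of the transcript. Gene bodies held 57.5%, 56.5% and 56.8% of all listed regions, but many regions outside genes carry no gene name and could not be members, so the shares are not comparable. The promoter class of the tables reaches up to 3 kb from a start site on either side, and Dag1, Lamc1, Itga1 and Itgb1 were the genes with a region in it. It held 2 of the 50 regions between DCL and control (9.73% of all regions of that table), 3 of the 27 between the lesions (9.37%) and 0 of the 19 between PL and control (7.78%). RefSeq start site sequences were at hand for 6 of the 10 genes (assembly GRCm38.p6). The 250 bases before the start are shown for Dag1, Itga1 and Itgb1, which carried a promoter region, and for Lama2, which carried none, with each CG dinucleotide in capitals as the place where 5-hmC can form.
Dag1 promoter, chr9:108263959-108264208, minus strand: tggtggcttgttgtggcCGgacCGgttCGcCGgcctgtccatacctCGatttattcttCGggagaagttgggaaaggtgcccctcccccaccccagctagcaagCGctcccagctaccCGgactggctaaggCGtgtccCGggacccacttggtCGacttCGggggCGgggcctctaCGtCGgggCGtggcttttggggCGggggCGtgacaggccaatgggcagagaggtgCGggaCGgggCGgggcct
Itga1 promoter, chr13:115101965-115102214, minus strand: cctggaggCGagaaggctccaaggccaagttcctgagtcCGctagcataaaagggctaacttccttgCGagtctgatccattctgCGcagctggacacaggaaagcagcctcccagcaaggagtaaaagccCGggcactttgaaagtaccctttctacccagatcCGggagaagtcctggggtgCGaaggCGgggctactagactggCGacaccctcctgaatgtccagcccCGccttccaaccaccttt
Itgb1 promoter, chr8:128685404-128685653, plus strand: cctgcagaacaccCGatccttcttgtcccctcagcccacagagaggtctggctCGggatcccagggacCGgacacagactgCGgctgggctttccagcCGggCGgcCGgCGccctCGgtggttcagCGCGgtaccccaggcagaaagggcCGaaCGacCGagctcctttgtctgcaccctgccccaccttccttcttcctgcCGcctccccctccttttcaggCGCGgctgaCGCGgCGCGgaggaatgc
Lama2 promoter, chr10:27616943-27617192, minus strand: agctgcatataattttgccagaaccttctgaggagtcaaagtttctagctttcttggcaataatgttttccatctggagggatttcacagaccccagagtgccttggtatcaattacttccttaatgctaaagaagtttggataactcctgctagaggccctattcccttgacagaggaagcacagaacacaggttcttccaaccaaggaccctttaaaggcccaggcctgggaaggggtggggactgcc

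The stretch before Dag1 (the outer of 2 starts) held 21 CG dinucleotides, that of Itgb1 21, that of Itga1 10 and that of Lama2 0, against a median of 6 over 32851 such stretches, of which 92.1% held at least 1 CG. Before the inner Dag1 start, whose stretch is not shown, there were 36. CG reads the same on both strands. No listed region covered these stretches: relative to the start, the promoter region of Dag1 lay at −1531 bp, that of Itgb1 at −1324 bp, that of Itga1 at 2372 bp and that of Lamc1 at −2994 bp, all by the mm9 coordinates of the tables. The stretches of Agrn and Itga9, which also carried no promoter region, are not shown. They held 35 CG dinucleotides before the outer Agrn start, 8 before its inner start and 10 before an Itga9 start. By position that is the inner listed Itga9 start, and no stretch before the outer one was at hand.

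The comparison of PL with control asked where 5-hmC differed after a lesion from which sensory axons can regrow. Of the 19 regions, 13 were listed as lower after PL and 6 as higher, so 31.6% were higher and 68.4% lower, where 50.4% and 49.6% of all regions of that table were. The lower regions were spread over 8 of the 10 genes: dystroglycan, agrin, 2 of the 3 laminin chains and the integrin genes other than Itga6. Dag1, Agrn, Itga1, Itga7, Itgb1 and Lama2 had lower regions and no higher one, Itga9 and Lamc1 had both, Lama4 had 1 higher region and Itga6 had none. Among all 4735 gene names of the table, 38.6% had lower regions only, 41.7% higher regions only and 19.8% both. In all 19 regions the 3 PL libraries lay beyond the 3 control libraries, as they did in 95.6% of the higher and 6066 of the 6067 lower regions of the table (100% as rounded). The deposited adjusted p was under 0.05 in 5 of the 6 higher regions (98.1% of all higher regions) and 13 of the 13 lower ones (99%), and under 0.01 in 2 of 6 (47.1%) and 6 of 13 (51.8%).

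**Figure D1:**
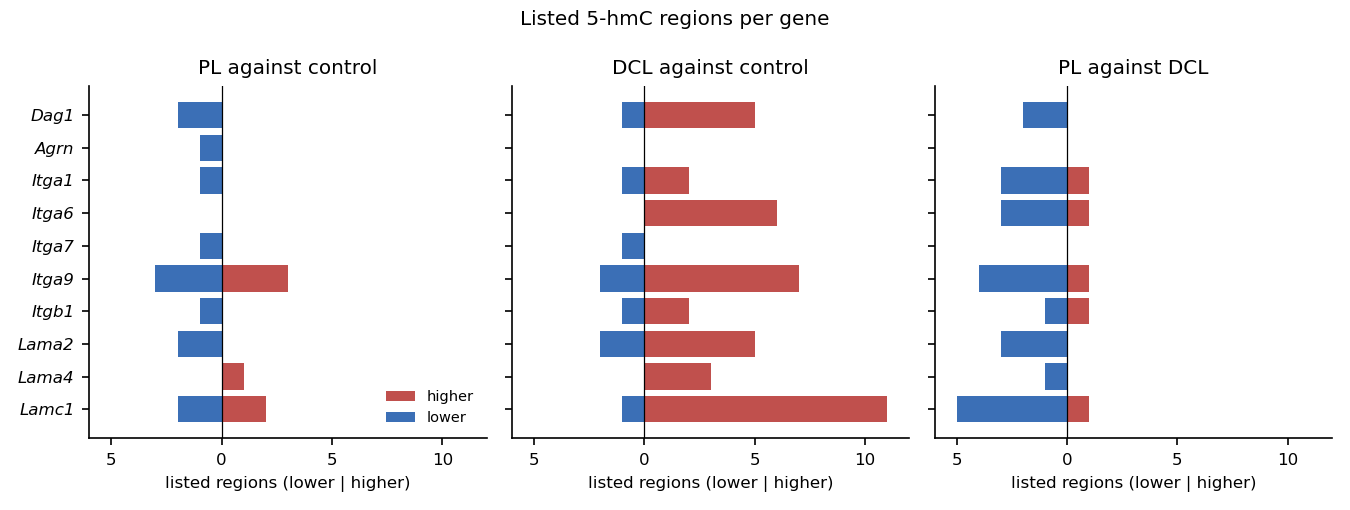
Number of listed 5-hmC regions per gene (horizontal axis, lower regions to the left and higher regions to the right of 0) in the 3 comparisons, with 3 libraries per group. PL against control shows 13 lower and 6 higher regions, DCL against control 9 lower and 41 higher, and PL against DCL 22 lower and 5 higher.

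Dag1 encodes both subunits of dystroglycan, the laminin and agrin receptor. Its region on chromosome 9 from 108121041 to 108121460 (mm9, gene body) had 12.7, 10.5 and 8.87 in the PL libraries against 48.4, 43.4 and 38.6 in control. Every PL library lay below every control library, and the recovered reads were 14, 7 and 5 against 46, 65 and 67. The control mean was 4.07-fold the PL mean (43.5 ± 4.90 against 10.7 ± 1.92, SD, n = 3), with an adjusted p of 1.54e-05 in the authors' deposited table. The other Dag1 region, nearer to the start, had 5.44, 12 and 8.87 after PL against 24.2, 23.4 and 20.8 (adjusted p = 0.0104 in the authors' deposited table).

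Agrin, the Agrn product, binds dystroglycan and laminin and is best known for organising the neuromuscular synapse. Its only region in any table lay in the gene body on chromosome 4 from 155561881 to 155562100. It had 7.25, 0 and 3.55 after PL against 17.9, 18 and 13.8 in control. No PL library reached the lowest control, and the second-listed PL library had no read there. The means were 3.6 ± 3.63 and 16.6 ± 2.39 (SD, n = 3), a 4.61-fold difference, and the adjusted p in the authors' deposited table was 0.00654. The log2 ratio of −2.20 was −3.22 without the first-listed PL library and −1.62 without the second-listed one.

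The integrin beta-1 subunit, encoded by Itgb1, pairs with each of the 4 alpha subunits described here. Between PL and control its region on chromosome 8 from 131217641 to 131217840 had 0, 3.00 and 10.7 after PL against 14.7, 18.7 and 13.8. These PL values are 0, 2 and 6 reads, so the 3.46-fold difference of the means rests on few reads (adjusted p = 0.0121 in the authors' deposited table). Its log2 ratio of −1.79 was −3.39 without the third PL library and −1.21 without the first. Itga7, the alpha subunit of a laminin receptor of muscle and of Schwann cells and neurons, had 5.44, 1.5 and 5.32 against 13.7, 13.4 and 16.1 on chromosome 10 from 128385881 to 128386080. Itga1, the alpha subunit of a collagen and laminin receptor, had 8.16, 1.5 and 7.10 against 16.8, 18.7 and 20.8 on chromosome 13 from 115815581 to 115815800. The PL libraries were below all controls in both, with means that differed 3.52-fold in Itga7 and 3.36-fold in Itga1 (adjusted p = 0.0125 and 0.00745 in the authors' deposited table).

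Itga9 encodes an alpha subunit that binds tenascin-C, among other ligands, and is a long gene, with a listed span of 294.3 kb. It carried 6 regions, 3 lower and 3 higher, a number that 119 of the 4735 gene names of the table reached. Its lower region with the smallest adjusted p, on chromosome 9 from 118802321 to 118802520, had 1.81, 6.00 and 5.32 after PL against 17.9, 16 and 13.3 (3.59-fold, adjusted p = 0.00611 in the authors' deposited table). Its higher region from 118670561 to 118670760 had 17.2, 15.0 and 14.2 against 8.42, 5.34 and 4.61, a 2.53-fold difference (adjusted p = 0.0103 in the authors' deposited table). A further higher region, from 118810441 to 118810640, had 22.7, 31.5 and 39.0 against 13.7, 13.4 and 15.0. That region is filed under the gene body in the tables, although it begins 320 bp past the listed end of the transcript. The last lower and the last higher region thus both lay at the 3′ end of the gene.

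The laminin chains differed from each other in direction. Lama2, the alpha chain of the main laminin of the Schwann cell basement membrane, carried 2 lower regions between PL and control. The one on chromosome 10 from 26776541 to 26776740 had 5.44, 10.5 and 12.4 against 22.1, 22 and 29.4 (2.59-fold, adjusted p = 0.00846 in the authors' deposited table). Lama4, the alpha chain of a laminin of blood vessels and of nerve, carried 1 higher region, on chromosome 10 from 38765381 to 38765580. It had 22.7, 21.0 and 24.8 after PL against 10.5, 12 and 7.49, a 2.28-fold difference (adjusted p = 0.00979 in the authors' deposited table). All PL libraries lay above all controls there.

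Lamc1, the gamma chain shared by most laminins, carried 2 higher and 2 lower regions. The lower region on chromosome 1 from 155130441 to 155130780 had 23.6, 25.5 and 26.6 after PL against 67.3, 68.8 and 44.4. With 26, 17 and 15 reads against 64, 103 and 77 it had the most reads of the 19 regions, and the groups stood apart (25.2 ± 1.54 against 60.2 ± 13.7, SD, n = 3). Its adjusted p in the authors' deposited table was 0.00424. The higher region from 155110661 to 155110880 had 52.6, 30.0 and 49.7 against 27.4, 24.1 and 18.4 (1.89-fold, adjusted p = 0.00548 in the authors' deposited table). The other higher region had a deposited adjusted p of 0.0872, the only one of the 19 at 0.05 or more. In the table as a whole the median log2 ratio was 1.27 for higher and −1.65 for lower regions, and in these genes it was 1.14 and −1.75.

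**Figure D2:**
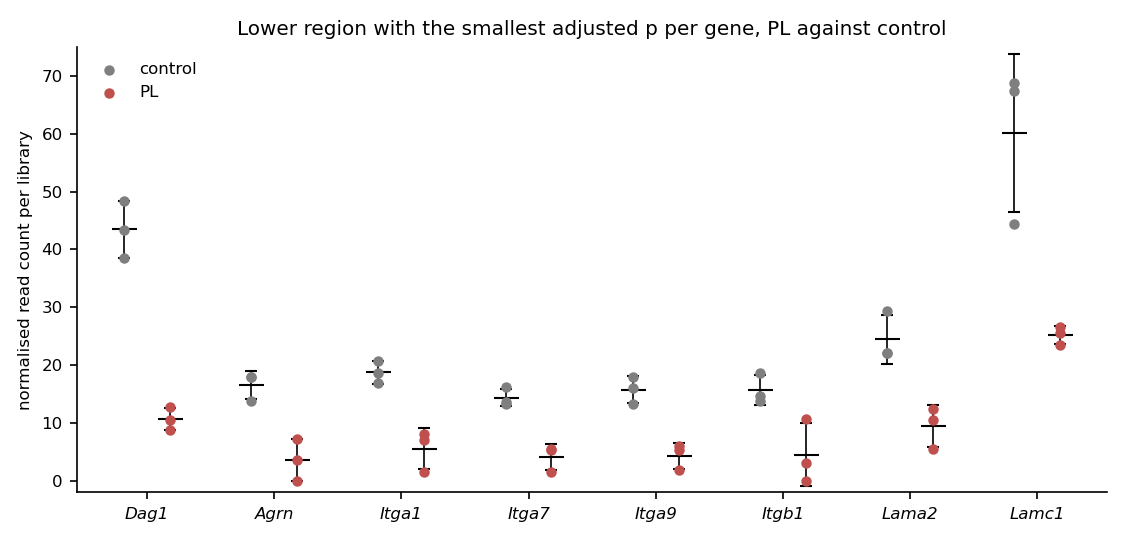
Normalised read count of each PL and control library (points, vertical axis, 3 per group) with the mean and SD (bars) in the lower region with the smallest deposited adjusted p of each of 8 genes. In all 8 the PL points lie under the control points, from 10.7 against 43.5 in Dag1 to 25.2 against 60.2 in Lamc1 (means).

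The comparison of DCL with control concerned the lesion of the central branch, from which the same neurons regrow poorly. Here DCL was the higher group in 41 of the 50 regions and the lower group in 9. The shares, 82% and 18%, were close to the 82.9% and 17.1% of all regions of that table. The deposited adjusted p was under 0.05 in 39 of the 41 higher regions (97.6% of all higher regions) and 8 of the 9 lower ones (99.6%), and under 0.01 in 38 (91.3%) and 7 (97.7%). Lamc1 had 12 regions, 11 of them higher, Itga9 had 9, Lama2 7, Dag1 and Itga6 6 each, Itga1, Itgb1 and Lama4 3 each and Itga7 1, while Agrn had none. A count of 12 or more was reached by 170 of the 9100 gene names in the table, whose median was 2. Per 100 kb of listed span this was 10.5 regions in Lamc1 and 10.2 in Dag1, against 1.1 in Lama2, the longest gene with 635.7 kb.

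One DCL library carried much of the higher list. Over the 41 regions the median value was 59.6 in the first-listed DCL library and 29.9 and 18.4 in the others, while the controls had 17.5, 18 and 17.1. The first-listed DCL library was the highest of the 3 in 33 of the 41 regions, where it was in 85.9% of all higher regions of the table. A single read in it was worth 3.14, against 1.49 and 0.658 in the other DCL libraries and 0.534 to 0.975 in the controls. The lowest DCL library exceeded the highest control in 15 of the 41 regions, against 46.5% of all higher regions. Without the first-listed library, 17 of the 41 kept a difference of 1.5-fold (51.4% of all higher regions did) and 7 turned to the other direction (10.2% of all). Their median log2 ratio was 0.56 without it and 1.08 with it. The log2 ratio of most of the named higher regions is therefore given with and without that library.

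**Figure D3:**
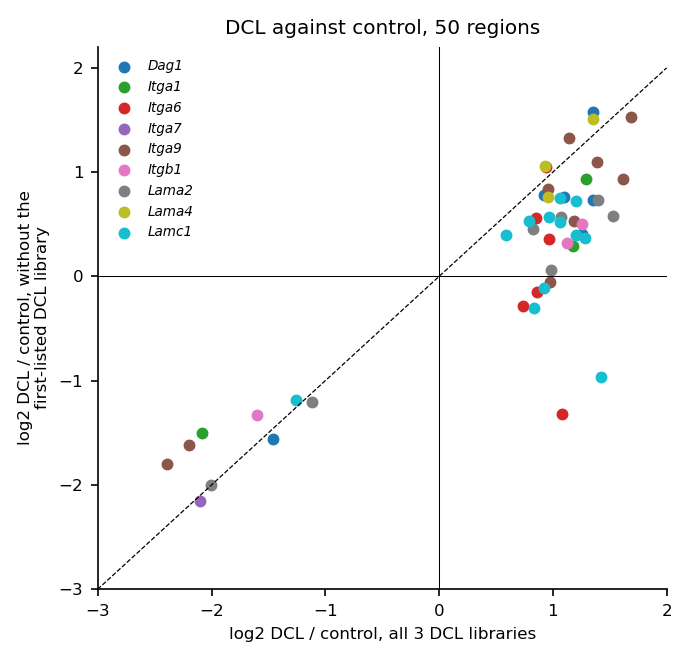
Log2 ratio of the DCL to the control mean for the 50 regions (points, coloured by gene), with all 3 DCL libraries (horizontal axis) and without the first-listed DCL library (vertical axis). The dashed line marks equal values; the 9 lower regions stay below 0 on both axes, while most of the 41 higher regions fall under it and 7 fall below 0.

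The 9 lower regions held in each library: every DCL value was below every control value, as in 99.7% of all lower regions of the table. All 9 also kept a 1.5-fold difference without the first-listed DCL library (99.8% of all lower regions). The DCL values rested on few reads, with medians over the 9 regions of 1, 5 and 6 reads in the 3 DCL libraries. Dag1 again had the same stretch. From 108121121 to 108121380, within the region that was lower after PL, it had 12.6, 7.47 and 13.2 after DCL against 30.2, 31.0 and 29.9. The difference was 2.75-fold (11.1 ± 3.12 against 30.4 ± 0.552, SD, n = 3). Its adjusted p in the authors' deposited table was 0.000324, and both comparisons share their control libraries. It was the only stretch of these genes listed in both comparisons with control. Over all listed regions, 76 had identical bounds in both, and overlaps with differing bounds, such as this one, were not counted.

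Lamc1 had its lower region from 155133561 to 155134040, 2780 bp from the one that was lower after PL. It had 34.5, 29.9 and 50.7 against 88.7, 104.7 and 81.2 (2.39-fold, adjusted p = 0.0003 in the authors' deposited table). The control libraries had 91, 169 and 152 reads there, and the first-listed DCL library 11. Itga7 had 3.14, 2.99 and 2.63 against 13.7, 11.2 and 12.8 on chromosome 10 from 128374561 to 128374760, where the DCL values are 1, 2 and 4 reads (4.30-fold, adjusted p = 0.00132 in the authors' deposited table). Itga7 had lower regions in both comparisons with control, but at different places of the gene.

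Itga9 had 2 lower regions. The one from 118714721 to 118714980 had 0, 7.47 and 4.61 after DCL against 20.5, 18.6 and 16.6 (4.6-fold, adjusted p = 0.000333 in the authors' deposited table). Its log2 ratio of −2.20 was −3.01 without the second-listed DCL library and −1.62 without the first-listed one. Lama2 had a pair of lower regions 1080 bp apart in its 5′ part. The one from 27200601 to 27200800 had 3.14, 2.99 and 3.29 against 13.7, 11.8 and 12.3 (4.0-fold, adjusted p = 0.00288 in the authors' deposited table). Itgb1 had 3.14, 8.96 and 3.95 against 13.7, 18 and 17.1 from 131227661 to 131227860 (3.04-fold, adjusted p = 0.00267 in the authors' deposited table). Its log2 ratio of −1.60 was −2.20 without the second-listed DCL library and −1.33 without the first-listed one. The lower Itga1 region, from 115800381 to 115800620, had 0, 2.99 and 11.2 against 19.5, 16.7 and 24.0, and its deposited adjusted p was 0.0711. The log2 ratio of −2.09 there was −3.75 without the third DCL library and −1.50 without the first. The DCL libraries held 0, 5 and 7 reads in the Itga9 region given here and 1, 2 and 5 in the Lama2 region. They held 1, 6 and 6 reads in the Itgb1 region and 0, 2 and 17 in the Itga1 region.

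Some higher regions did not rest on the first-listed library. In Itga9 the region from 118803921 to 118804280 had 72.1, 85.1 and 22.4 after DCL against 14.6, 19.8 and 21.4. All DCL libraries were above all controls, though the third only narrowly, and the log2 ratio was 1.69 with and 1.53 without the first-listed library (adjusted p = 0.000267 in the authors' deposited table). Dag1 had 5 higher regions, all between −1.53 and 15.3 kb of its outer start, while its lower stretch lay 45.0 kb into the gene. The one from 108153781 to 108154100 had 22, 58.2 and 17.8 against 11.7, 11.2 and 15.5, with a log2 ratio of 1.35 with and 1.57 without the first-listed library (adjusted p = 0.000303 in the authors' deposited table). It was 0.64 without the second-listed DCL library, the highest one there. In its promoter, from 108167641 to 108168000, Dag1 had 53.3, 55.2 and 27.0 against 26.3, 27.3 and 18.2. There the third DCL library lay just under the highest control, and the log2 ratio was 0.92 with and 0.78 without the first-listed library (adjusted p = 0.00311 in the authors' deposited table).

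All 3 higher regions of Lama4 kept a 1.5-fold difference without the first-listed library, with a median log2 ratio of 1.06 in place of 0.96, and that library was the highest in none of them. The region from 38720421 to 38720640 had 65.9, 71.7 and 19.1 after DCL against 24.4, 27.9 and 28.3, so the third DCL library was below all controls (adjusted p = 0.00141 in the authors' deposited table). Its log2 ratio was 0.96 with and 0.76 without the first-listed library. Of 5 higher regions in Dag1 and 7 in Itga9, 4 and 5 kept the 1.5-fold difference.

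A smaller share of the higher regions in the other genes kept a 1.5-fold difference without the first-listed library: 2 of 11 in Lamc1, 1 of 6 in Itga6, 1 of 5 in Lama2, 1 of 2 in Itga1 and 0 of 2 in Itgb1. Without it, 3 regions turned direction in Lamc1, 3 in Itga6 and 1 in Itga9. The Lamc1 promoter region, from 155182781 to 155183040, had 109.8, 7.47 and 8.55 after DCL against 13.7, 19.8 and 13.4. Its other DCL libraries lay below all controls, so the log2 ratio of 1.43 became −0.96 without the first-listed one, although its adjusted p in the authors' deposited table was 0.000267. Itga6 encodes the alpha subunit of a major laminin receptor. Its region from 71654241 to 71654620 was the one that kept it, with 62.7, 115.0 and 45.4 against 46.8, 37.8 and 32.1 and a log2 ratio of 0.94 with and 1.04 without that library (adjusted p = 0.000288 in the authors' deposited table). It was 0.48 without the second-listed DCL library, and the third was under the highest control.

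In Itgb1 the region from 131243581 to 131243940 had 138.0, 59.7 and 25.0 after DCL against 37.0, 41.5 and 23.5, and its log2 ratio was 1.13 with and 0.32 without the first-listed library (adjusted p = 0.00103 in the authors' deposited table). In Lama2 the region from 27013981 to 27014200 had 72.1, 20.9 and 17.1 against 13.7, 14.9 and 9.62. All DCL libraries lay above control, and the log2 ratio was 1.53 with and 0.58 without the first-listed library (adjusted p = 0.000267 in the authors' deposited table). Another Lama2 region, from 26725321 to 26725580, was listed with a deposited adjusted p of 0.243. The higher Itga1 region from 115788661 to 115788940 had 72.1, 59.7 and 18.4 against 13.7, 21.7 and 26.2, with overlapping groups (adjusted p = 0.00271 in the authors' deposited table). Its log2 ratio was 1.29 with and 0.93 without the first-listed library.

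**Figure D4:**
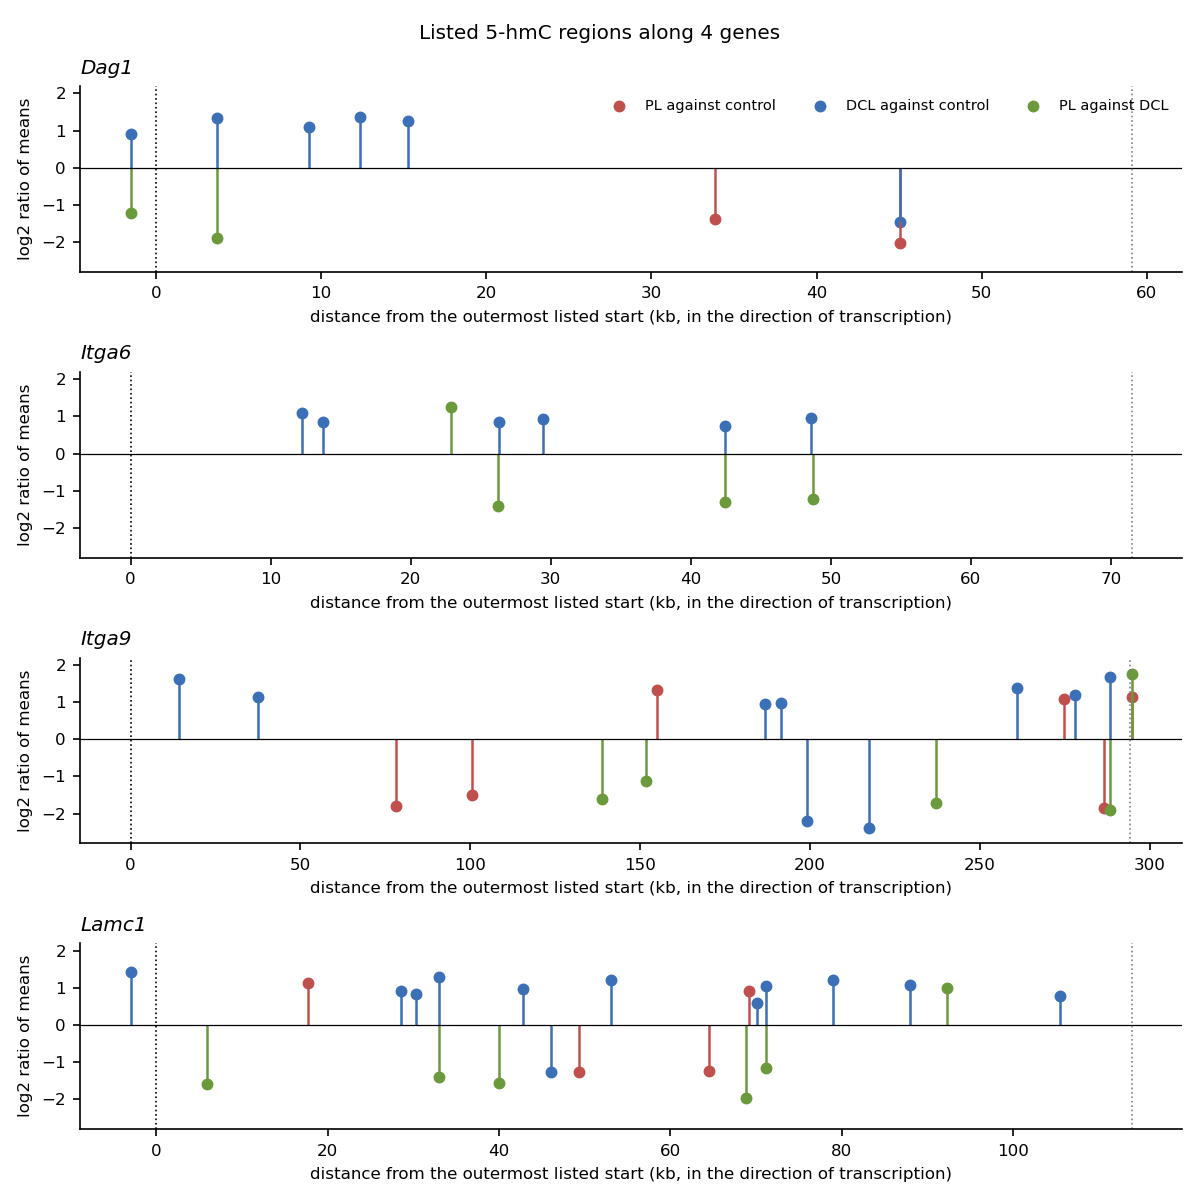
Log2 ratio of the group means (vertical axis) of each listed region in Dag1, Itga6, Itga9 and Lamc1 against its distance in kb from the outermost listed start (horizontal axis, dotted lines at the start and at the end of the listed span), coloured by comparison. In Dag1 the 5 regions that were higher after DCL lie at −1.53 to 15.3 kb and the stretch lower after both lesions at 45.0 kb.

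Set against each other, PL was lower than DCL in 22 of the 27 regions and higher in 5. Lower regions made up 81.5%, where 75.1% of all regions of the table were lower. Of the 22 lower regions, 15 had all PL libraries under all DCL libraries (59% of all lower regions of the table did). The first-listed DCL library was the highest of its group in 19 of the 22 (79.6% of all), none of the 22 turned direction without it (5.73% of all did), and 19 kept a 1.5-fold difference without the first-listed DCL library (70.4% of all). Of the 5 higher regions, 4 had all PL libraries above all DCL libraries (98.5% of all higher regions), and 5 kept a 1.5-fold difference without the first-listed DCL library (100% of all). The deposited adjusted p was under 0.05 in all 27 (99.3% of all higher and 98.2% of all lower regions), and under 0.01 in 4 of the 5 higher (95.2%) and 22 of the 22 lower ones (92.3%). Dag1, Lama2 and Lama4 had lower regions only, Itga1, Itga6, Itga9, Itgb1 and Lamc1 had both kinds, and Agrn and Itga7 had none. Of all 7228 gene names of the table, 62.4% had lower regions only, 15.6% higher regions only and 22% both.

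Of these 27 regions, 12 overlapped a region that was higher after DCL than in control, and all 12 were lower in PL than in DCL. As the DCL libraries are the same in both tables, this is not a second observation of DCL. In 3 of the 12 the bounds were identical, so that all 3 groups can be given side by side, although the 2 tables were normalised separately. Over all listed regions, 2609 had identical bounds in these 2 tables. How many of all regions overlapped, and in which direction they differed, was not counted. In Itga9 from 118803921 to 118804280, PL had 8.68, 13.4 and 13.5 and DCL 53.9, 63.1 and 16.6 in the table of the 2 lesions. The PL libraries were all under the DCL libraries, 3.76-fold lower by the means (adjusted p = 0.00026 in the authors' deposited table), and the log2 ratio was −1.91 with and −1.75 without the first-listed DCL library. In Itgb1 from 131235001 to 131235240, PL had 6.20, 1.03 and 4.91 against 30.4, 11.1 and 8.78 after DCL, while the table with control gave 40.8, 14.9 and 11.8 after DCL against 10.7, 11.2 and 6.41. Without the first-listed DCL library the log2 ratio of −2.05 for PL over DCL was −1.30, and that of 1.26 for DCL over control was 0.51. In Itga1 from 115795381 to 115795600, PL had 6.82, 11.3 and 6.13 against 44.5, 12.2 and 12.7, and the log2 ratio was −1.52 with all libraries and −0.62 when the first-listed DCL library was left out. The table with control gave 59.6, 16.4 and 17.1 after DCL against 9.75, 14.2 and 17.1 there, with a log2 ratio of 1.18, or 0.29 without that library.

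**Figure D5:**
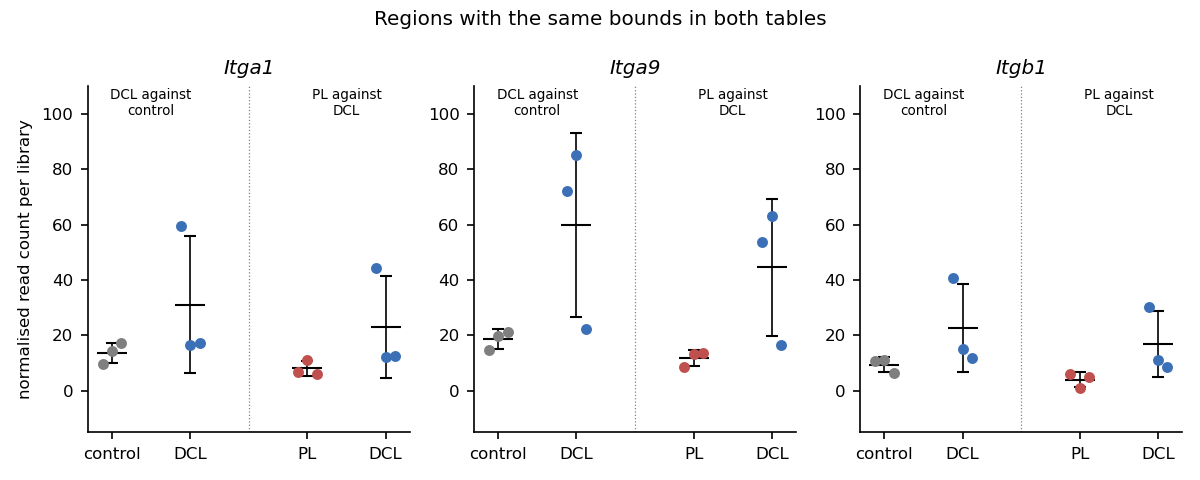
Normalised read counts of each library (points, vertical axis) with mean and SD (bars, n = 3) for the 3 regions with identical bounds in the table of DCL and control (left of the dotted line) and in that of PL and DCL (right), which were normalised separately. In the Itga9 region 2 DCL libraries stand far above all others, at 72.1 and 85.1 in the left table, and in Itga1 a single one does, at 59.6.

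The other overlapping regions lay in Dag1, Itga1, Itga6, Lama2 and Lamc1. In Dag1 from 108162461 to 108162680, DCL had 43.9, 16.4 and 17.1 against 13.7, 8.68 and 8.01 in control (adjusted p = 0.000451 in the authors' deposited table). From 108162481 to the same end, PL had 6.20, 4.11 and 4.91 against 32.8, 12.2 and 11.2 after DCL (adjusted p = 0.00592 in the authors' deposited table). The 3 DCL libraries were above the other group in both tables, with log2 ratios, without the first-listed one, of 0.73 over control and of −1.21 for PL over DCL.

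In Itga6 all 3 overlaps were led by a single DCL library. From 71651161 to 71651360, PL had 11.2, 9.26 and 9.81 against 56.2, 14.4 and 10.2 after DCL (adjusted p = 0.00539 in the authors' deposited table), and in the wider region to 71651440 DCL had 78.4, 22.4 and 16.5 against 24.4, 18 and 22.4 in control (adjusted p = 0.00549 in the authors' deposited table). Without the first-listed DCL library the log2 ratios were −0.29 for PL over DCL and −0.15 for DCL over control. From 71667301 to 71667500, PL had 6.20, 9.26 and 14.7 against 53.9, 12.2 and 8.29, and the log2 ratio of −1.30 became −0.03 without that library. The matching region against control had 72.1, 19.4 and 15.8 after DCL against 27.3, 18 and 19.2, with a deposited adjusted p of 0.0643. Its log2 ratio was 0.74 with and −0.29 without the first-listed DCL library. From 71673621 to 71673820, PL had 11.2, 14.4 and 13.5 against 49.2, 26.6 and 15.6, and here all PL libraries were under all DCL libraries (adjusted p = 0.00704 in the authors' deposited table). Its overlap with the region that was higher after DCL than in control, from 71673481 to 71673700 with 56.5, 28.4 and 15.8 against 21.4, 17.4 and 12.8, was 80 bp. The log2 ratio of the latter was 0.96, and 0.36 without the first-listed DCL library.

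Lamc1 had 2 overlaps. From 155108521 to 155108880, PL had 23.6, 26.7 and 28.2 against 93.7, 51.0 and 31.2 after DCL, with every PL library the lower one (adjusted p = 0.000401 in the authors' deposited table). In nearly the same bounds, DCL had 134.9, 71.7 and 42.1 against 46.8, 44.0 and 28.3 in control, where its lowest library lay inside the control range (adjusted p = 0.000945 in the authors' deposited table). Without the first-listed DCL library the log2 ratio of −1.16 for PL over DCL was −0.65, and that of 1.06 for DCL over control was 0.52. From 155146801 to 155147120, PL had 12.4, 7.20 and 16 against 60.9, 18.8 and 14.1, and to 155147100 DCL had 81.5, 25.4 and 19.1 against 22.4, 19.2 and 10.2 in control. In that pair the groups overlapped in both tables, and without the first-listed DCL library the log2 ratio of −1.40 was −0.48 and that of 1.28 was 0.37.

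In Lama2 from 26725321 to 26725520, PL had 12.4, 19.5 and 25.8 against 67.9, 41.0 and 19.99 after DCL (adjusted p = 0.00693 in the authors' deposited table). In the longer region there, the controls had 30.2, 47.1 and 43.8 against 103.5, 70.2 and 40.8 after DCL, so the lowest DCL library was under 2 of the 3 controls. Without the first-listed DCL library the log2 ratio of −1.16 for PL over DCL was −0.66, and that of 0.82 for DCL over control was 0.46. In Itga1 from 115788721 to 115788920, PL had 16.1, 12.3 and 18.4 against 53.9, 42.1 and 13.2 (adjusted p = 0.00547 in the authors' deposited table), with 1 DCL library inside the PL range. The Itga1 region with the smallest adjusted p between the lesions overlapped none: from 115863721 to 115863960, PL had 9.30, 7.20 and 3.68 against 49.2, 9.97 and 13.2, all PL libraries being lower (adjusted p = 0.00218 in the authors' deposited table). Its log2 ratio of −1.84 was −0.78 without the first-listed DCL library.

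The promoter regions followed no common direction. In Dag1 from 108167681 to 108167980, PL had 8.68, 14.4 and 18.4 against 39.8, 38.8 and 17.6 after DCL (2.32-fold lower by the means, adjusted p = 0.00427 in the authors' deposited table), with 1 DCL library inside the PL range. In Itga1, in a region from 115889701 to 115889900 that lies 2372 bp after the start, PL had 22.3, 24.7 and 18.4 against 4.68, 9.97 and 10.2. Here PL was the higher group in every library, 2.63-fold by the means (adjusted p = 0.00353 in the authors' deposited table). In Itgb1 from 131208101 to 131208360, PL had 11.8, 23.6 and 23.3 against 9.36, 13.3 and 4.39. The lowest PL library was under the highest DCL library there, and the difference was 2.17-fold (adjusted p = 0.0236 in the authors' deposited table).

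Several differences between the lesions did not depend on the first-listed DCL library. In Lamc1 the region from 155110901 to 155111160 had 8.06, 5.14 and 3.68 after PL against 21.1, 26.6 and 18.5 after DCL, with a log2 ratio of −1.97 with and −2.0 without that library (adjusted p = 0.00026 in the authors' deposited table). It begins 20 bp after the Lamc1 region that was higher in PL than in control, so windows side by side were listed in opposite directions against different groups. Lama4 had 14.2, 10.3 and 13.5 after PL against 28.1, 31.0 and 24.4 from 38714561 to 38714800, 2.2-fold lower by the means (adjusted p = 0.00518 in the authors' deposited table). Lama2 had 4.34, 0 and 0 against 14.1, 9.97 and 10.2 from 26766921 to 26767120, where the PL libraries held 7, 0 and 0 reads (adjusted p = 0.00144 in the authors' deposited table).

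The regions higher after PL than after DCL included the stretch past the Itga9 transcript end that was also higher after PL than in control. From 118810441 to 118810660 it had 17.4, 21.6 and 29.4 against 4.68, 6.65 and 8.78, a 3.4-fold difference (adjusted p = 0.00445 in the authors' deposited table). The 2 comparisons share the PL libraries. Itga6 had 24.2, 21.6 and 17.2 after PL against 9.36, 6.65 and 10.2 from 71647761 to 71647960 (adjusted p = 0.00318 in the authors' deposited table), and Lamc1 had 28.5, 26.7 and 31.9 against 14.1, 17.7 and 12.2 from 155087461 to 155087780 (adjusted p = 0.00293 in the authors' deposited table). In both, every PL library was above every DCL library. The DCL libraries held 2, 6 and 18 reads in the Itga9 stretch. Over all 5 regions higher after PL than after DCL, their median was 4, 9 and 21 reads.

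Other genes of the same system were counted in the same way. The 10 genes and these lists were chosen with earlier results known, so their numbers of genes with a region cannot be compared. The share of all genes with a region is not known, since genes without one are not listed. Between PL and control, 3 of 8 other laminin chain genes, 10 of 21 other integrin genes, 8 of 11 genes of basement membrane partners, 10 of 18 genes of the dystrophin complex, 2 of 9 genes that glycosylate dystroglycan and 8 of 15 genes of integrin adapters carried a region. Higher regions made up 2 of 4 in the other laminin chains, 7 of 13 in the other integrins, 8 of 13 in the basement membrane partners, 11 of 26 in the dystrophin complex, 7 of 17 in the adapters and 2 of 2 in the glycosylation genes, against 50.4% of all regions. Tln2, a talin that links integrins to actin, had 1.81, 6.00 and 1.77 after PL against 17.9, 16.7 and 14.4 in control (adjusted p = 0.00195 in the authors' deposited table). Itgb4, the beta subunit that pairs with Itga6 in hemidesmosomes, had 29.0, 21.0 and 26.6 against 13.7, 8.02 and 8.65 (adjusted p = 0.00198 in the authors' deposited table). Sntb1, a syntrophin, had 5.44, 0 and 0 against 14.7, 14.7 and 13.3 (adjusted p = 0.0027 in the authors' deposited table).

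After DCL, 7 of 8, 16 of 21, 9 of 11, 13 of 18, 5 of 9 and 12 of 15 genes of these lists carried a region, and the share of higher regions ran from 75.4% in the dystrophin complex to 93.1% in the basement membrane partners, against 82.9% of all regions. Hspg2, which encodes the basement membrane proteoglycan perlecan, had a lower region with 9.41, 10.4 and 10.5 after DCL against 37.0, 34.1 and 32.6 (adjusted p = 0.000158 in the authors' deposited table). Its DCL libraries lay close together and far under control. The higher regions next in rank, B3galnt2 with 56.5, 22.4 and 11.2 against 9.75, 4.34 and 6.41 and the collagen gene Col4a4 with 131.7, 41.8 and 23.0 against 18.5, 22.3 and 24.6, were led by the first-listed DCL library (adjusted p = 0.000267 for each in the authors' deposited table). Between the lesions the share of regions higher after PL was 20% to 33.3% in the 6 lists, against 24.9% of all regions. Regions in the dystrophin gene Dmd and in Pomk, which had the smallest adjusted p there, were lower after PL than after DCL. Dmd had 11.2, 9.26 and 9.81 against 74.9, 31.0 and 9.27 (adjusted p = 0.00026 in the authors' deposited table). The third DCL library lay inside the PL range there. Pomk had 6.82, 13.4 and 15.95 against 67.9, 17.7 and 22.9, and in both genes the first-listed DCL library was the highest.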

How the data were processed

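5-hmC pulldown libraries of mouse dorsal root ganglia were compared (9 enriched libraries, 3 per group). The build mm9 and the tools MACS2 2.1.1, SAMtools 0.1.19 and Bowtie2 2.2.0 appear, without their roles, in the submitters' processing notes. Which program called the regions is not given in the sources used here. Per the file headers and values, the authors deposited 3 normalised read counts per group and region, 1 for each library, and their mean signal. The authors' enrichment ratio, log2 fold change and p-values were also deposited; of these the adjusted p-value is given here, and the test behind it is not named.

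Means and SDs (n = 3) were computed from the library values. Direction was that of the group means. Low values were whole multiples of a step, the value of 1 read (tolerance 0.1 of a step), and reads were recovered by dividing by it. Regions with identical bounds in 2 tables gave the same reads for the shared group at each listed position (76 to 2609 regions, 100%), so the libraries have 1 order throughout. Total depth is unknown. A count model was not fitted, since the tables hold selected regions only. The columns carry no replicate numbers. Regions were named by rule: in each gene and table, the region with the smallest adjusted p in each direction, promoter regions and overlaps between tables; further regions are given by counts, 1 region of the other lists is not reported here, and 1 further Dag1 and 1 further Lamc1 region were added. The genes and lists were chosen with earlier results of these data known. The functions were tested on simulated data. Values were computed with pandas 2.3.3 and numpy 2.4.6 under python 3.11.15, and plots drawn with matplotlib 3.10.9.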

Additional observations from a re-analysis of the deposited data

How the results depend on the processing

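At a deposited adjusted p under 0.01 in place of every listed region, 2 of the 6 higher and 6 of the 13 lower regions between PL and control were left. After DCL, 15 of 41 higher regions had all libraries apart. Leaving out each library in turn, with a 1.5-fold difference asked for, left 17 to 41 of the higher and 9 of the 9 lower regions after DCL, 6 and 13 between PL and control, and 5 higher and 19 to 22 lower between the lesions; the 17 arose without the first-listed DCL library. Over the same omissions the log2 ratio ran from −0.15 to 1.22 and from −0.29 to 1.09 in the Itga6 regions at 71651161 and 71667301 and from −0.96 to 1.92 in the Lamc1 promoter region, with the lowest value again without that library. With medians in place of means it was −0.0026 in the first Itga6 region and −0.67 in the Lamc1 promoter region. The lowest value of the 41 regions was in Itga6 at 71637141. There the log2 ratio of 1.08 was −1.32 without the first-listed DCL library and −0.57 with medians. A match on any gene name in a cell changed no count. No paired analysis was possible because the columns carry no replicate numbers and the tables hold only selected regions. Total depth is unknown, and single libraries held as few as 0 reads in a region.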

Other observations

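The recovered reads give another view of the regions listed as higher after DCL. Over the 3 libraries, the DCL group held fewer reads than the control group in 30 of the 41 such regions in these genes, and in 53.5% of all 29208, before the library factors were applied. At equal 5-hmC the factors imply 0.556 DCL reads for each control read. A region can thus hold fewer DCL than control reads and still be higher after DCL once the factors are applied. In Itga6 from 71651161 to 71651440 the DCL libraries had 25, 15 and 25 reads and the controls 25, 29 and 42. In the regions higher after PL than in control, the PL group held fewer reads than control in 0 of 6 and in 4.94% of all 6177, at an implied 0.558 PL reads for each control read. How much of the higher list rests on the factors was not tested.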
